A study of Rattus norvegicus with 12 samples.

Results

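The 3 endothelium-associated microRNAs (miRNA), rno-miR-126, rno-miR-221 and rno-miR-222, were followed in the plasma of pregnant and non-pregnant rats. They were taken by name, with the arm ending ignored, and matched 3 of the 420 endogenous rat probes in a table of 429 probes. All 12 animals were Wistar females, each giving 1 plasma sample. The pregnant group held 6 rats killed at mid-gestation (E14.5), aged 103 to 373 days, and the control group held 6 non-pregnant rats aged 110 to 269 days. Blood was drawn by cardiac puncture after death, cells and then platelets were spun out, and a rice miRNA (osa-miR-414) was added to every sample before RNA extraction. Abundance was read on the nCounter, which counts colour-coded probes bound to miRNA without amplification. The 2 groups were compared to ask whether circulating levels of these miRNAs differed in mid-pregnancy.

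MiR-126 is encoded within Egfl7, a gene of endothelial cells, and is the best-known miRNA of endothelium, where it acts in vessel integrity and in the response to vascular endothelial growth factor. It is also carried by platelets, so it is used both as a vascular and as a platelet marker in blood. MiR-221 and miR-222 are made from neighbouring genes, are present in endothelium and in vascular smooth muscle, and are known for repressing the receptor KIT and the cell cycle inhibitor CDKN1B. Plasma has no cell type of its own, and in such a bulk sample a lower number of source cells and less miRNA released per cell cannot be told apart.

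The mature sequences are shown because they separate the 3 miRNAs into 2 targeting groups. They were taken from RefSeq on build GRCr8 and are written 5′ to 3′, with the seed (bases 2 to 8, the stretch that pairs with targets) in capitals.
rno-miR-126a-3p: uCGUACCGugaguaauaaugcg
rno-miR-221-3p: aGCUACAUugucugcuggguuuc
rno-miR-222-3p: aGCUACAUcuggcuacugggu
MiR-221-3p and miR-222-3p had the same seed and the same first 8 bases, and were alike at 11 of 21 positions counted from the 5′ end. Among 693 mature rat miRNA names, no other shared that seed, and none shared the seed of miR-126a-3p. MiR-126a-3p was alike with miR-221-3p at 7 of 22 positions. The probe names state no arm, so which arm each probe bound is not given in the sources used here. The other arm of the miR-126 hairpin has a different seed.
rno-miR-126a-5p: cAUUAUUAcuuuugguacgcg

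The miR-126a-3p sequence lies at chr3:29813219-29813240 on the plus strand, in a hairpin at chr3:29813174-29813246 within the span of Egfl7 (chr3:29802481-29814966, plus strand). RefSeq lists this hairpin under the symbol Mir126b and an opposite-strand hairpin as Mir126a. Mir222 (chrX:6022621-6022723) and Mir221 (chrX:6023182-6023290) lie on the plus strand with 458 bases between them. Both fall in the span of a long non-coding RNA gene on the plus strand (LOC120099382) and of another on the minus strand (LOC120099384). Whether the hairpins are exonic or intronic in these host genes was not read here.

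Counts per rat were low. The endogenous counts summed to between 6969 and 10176 in the control group and between 5163 and 30301 in the pregnant group. Pregnant rats 5 and 6 stood apart with 24010 and 30301 counts, and pregnant rat 2 had the fewest. Results that turn on pregnant rats 5 and 6 are given with and without both. The background was taken from the 4 exogenous probes to which nothing had been added. Their mean lay between 7.25 and 15.75 counts per rat. The 4 probes were not alike, with means over the rats of 19.5 (ath-miR159a), 15.4 (cel-miR-254), 4.5 (osa-miR442) and 3.58 (cel-miR-248). This difference between probes is part of the SD used for detection.

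MiR-126 lay above the background in nearly every rat, miR-221 lay near it and miR-222 lay below the exogenous mean. MiR-126 ranked 13th of 420 endogenous probes by mean count, miR-221 ranked 64th and miR-222 ranked 307th. Since probes may differ in efficiency, these ranks order counts and not molecules. MiR-126 exceeded the mean + 2 SD of the exogenous probes in 11 of 12 rats, pregnant rat 2 being the exception. The margin was narrow in some rats, at 1.09 times that level in pregnant rat 1 and 1.26 times in control rat 6. In pregnant rat 6 it was 24.4 times. MiR-221 exceeded that level in 4 rats, 1 control and 3 pregnant, although it was above the exogenous mean in all 12. MiR-222 was under the exogenous mean in all 12 rats, so it was not detected above the background. Its mean of 4.42 counts was close to those of osa-miR442 and cel-miR-248, and its values are given as a description of the background only.

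**Figure D1:**
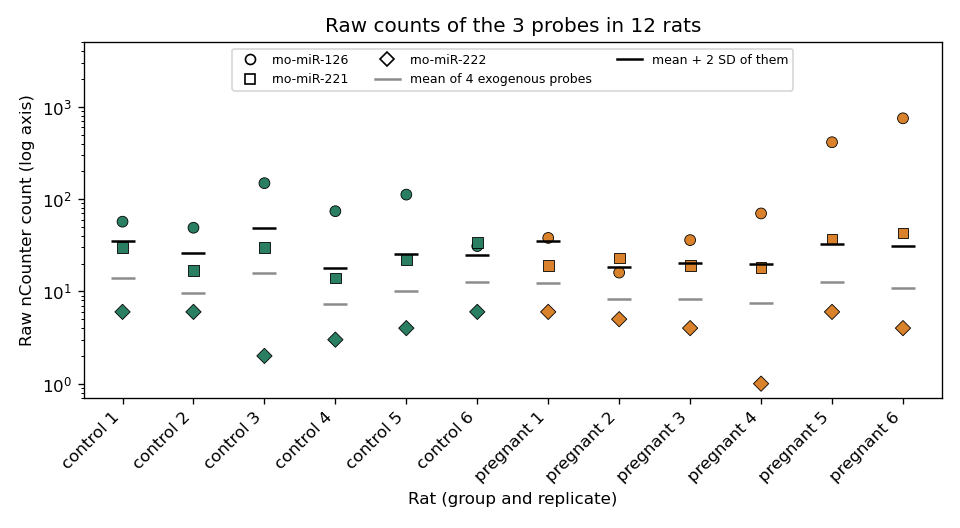
Raw nCounter counts (log axis) of miR-126 (circles), miR-221 (squares) and miR-222 (diamonds) in each of 6 control (green) and 6 pregnant (orange) rats, with grey and black bars at the mean and the mean + 2 SD of 4 exogenous probes. The circles run from 16 to 752, and every diamond lies below the grey bar of its rat.

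The raw counts of miR-126 in control rats 1 to 6 were 57, 49, 149, 74, 112 and 31. In pregnant rats 1 to 6 they were 38, 16, 36, 70, 414 and 752. Pregnant rats 5 and 6 lay above every control rat, pregnant rat 2 lay below every control rat, and the other 3 lay within the control range. The group means were 221 ± 300.6 counts (SD, n = 6) in the pregnant group and 78.7 ± 44.0 counts (SD, n = 6) in the control group, whereas the medians ran the other way, at 54 and 65.5 counts. The higher pregnant mean thus came from rats 5 and 6.

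As a share of the raw total, miR-126 in pregnant rat 6 was above every control rat, and in pregnant rat 5 its interval overlapped that of the highest control rat. MiR-126 took 1.72% of all endogenous counts in pregnant rat 5 (Wilson 95% interval 1.57% to 1.90%) and 2.48% in pregnant rat 6 (2.31% to 2.66%). The control rats ranged from 0.395% to 1.61% (1.34% to 1.93% for the highest), and the other 4 pregnant rats from 0.275% to 0.707%. Such intervals cover counting error only. Of the 3 miRNAs, miR-126 alone was among the 38 probes above the exogenous mean + 1 SD in all 12 rats, which were used here for total RNA scaling in place of a set built on the kit's negative controls.

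Scaled values were computed as CPM, each rat's count brought to a common library total, over the 187 probes that reached 10 counts in 6 or more rats, with library sizes adjusted by TMM, a trimmed mean that sets most probes level between rats. On this scale miR-126 had a lowest, median and highest value of 3103, 7165 and 14702 CPM in the control group. In the pregnant group these were 2014, 6983 and 55035 CPM, and pregnant rat 5 had 28658 CPM. The medians were close, and the pregnant range enclosed the control range at both ends. The mean log2 CPM was 13.16 ± 1.81 (SD, n = 6) in the pregnant group and 12.87 ± 0.87 (SD, n = 6) in the control group.

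MiR-126 did not pass the test between the groups. Its log2 fold change, pregnant over control, was 1.01 with a standard error of 0.70 (95% interval -0.49 to 2.51), and edgeR's quasi-likelihood test gave an adjusted p of 0.732. None of the 3 members was called, against 0 of all 187 tested probes (0%). At an unadjusted p under 0.05 the edgeR test called 11 probes (5.88%), again with no member among them. The groups of no tested probe failed to overlap in log2 CPM (0%). DESeq2, limma-voom and the exact permutation test also called 0 probes after adjustment, and at an unadjusted p under 0.05 they called 8, 6 and 6.

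The size and the sign of the miR-126 difference turned on pregnant rats 5 and 6. Without both, which was chosen after seeing the data, the log2 fold change was -0.82 with a standard error of 0.47, and edgeR's adjusted p was 0.552. Without pregnant rat 6 alone it was 0.13, and without pregnant rat 5 alone 0.78. It was 0.10 with plain library sizes, a scaling that moved the median of all tested probes to -0.33, so that miR-126 stood 0.43 above that median there and 0.96 above it with TMM. In limma-voom it was -0.09, with the exogenous mean subtracted 0.36 and with total RNA scaling 0.61. In DESeq2 it was 0.97 and with no filter 1.13. The difference in mean log2 CPM was 0.29 (exact permutation test, p = 0.727). Without pregnant rat 2, the lowest, the log2 fold change was 1.21 (edgeR adjusted p = 0.521).

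**Figure D2:**
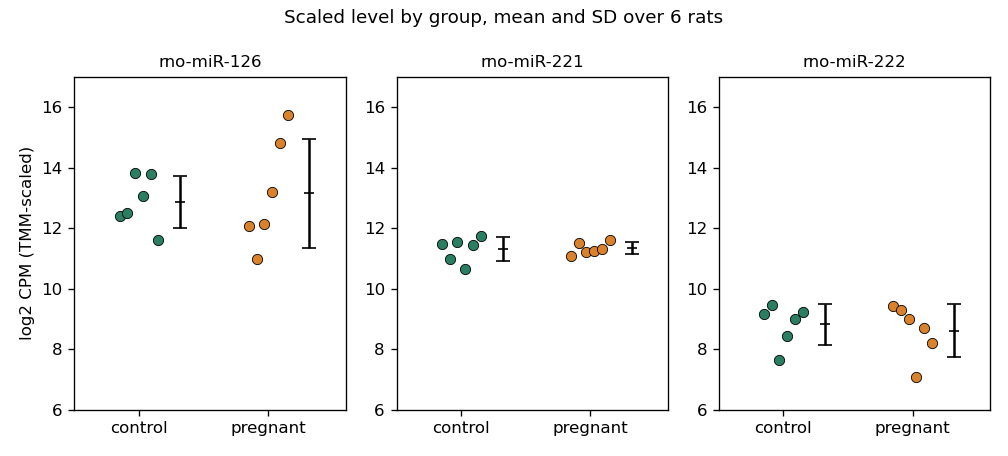
TMM-scaled log2 CPM of each miRNA in 6 control (green) and 6 pregnant (orange) rats, with the mean and SD beside the points. The pregnant rats spread from 10.98 to 15.75 for miR-126 and lie within the control spread for miR-221.

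MiR-221 was nearly level between the groups. Its raw counts in control rats 1 to 6 were 30, 17, 30, 14, 22 and 34. In pregnant rats 1 to 6 they were 19, 23, 19, 18, 37 and 43. Pregnant rats 5 and 6 were again highest by count, and the other 4 lay inside the control range. After scaling no pregnant rat was outside the control range, with 2159 to 3147 CPM in the pregnant group and 1616 to 3404 CPM in the control group. The means were 2597 ± 361.7 CPM (SD, n = 6) and 2614 ± 666.1 CPM (SD, n = 6).

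The log2 fold change of miR-221 was -0.01 with a standard error of 0.20, and edgeR's adjusted p was 0.993. Its 95% interval ran from -0.43 to 0.41, which bounds a difference on this scale but is not evidence that the groups were equal. The scaled value relies on the TMM factors: with plain library sizes the fold change was -0.45, and edgeR's adjusted p was 0.759. The SD of miR-221 over the 12 rats was 0.30 on the log2 CPM scale, against a median of 0.47 over all tested probes, and was the 22nd lowest of 187. Counting error alone at these counts gave an SD of 0.30, so that on this TMM scale no variation between rats beyond it could be measured. On other scales the SD was larger. It was 0.63 in the pregnant and 0.57 in the control group with plain library sizes, and 0.51 and 0.54 with total RNA scaling.

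MiR-222 read 6, 6, 2, 3, 4 and 6 counts in control rats 1 to 6. It read 6, 5, 4, 1, 6 and 4 counts in pregnant rats 1 to 6. The lowest value of 1 is the smallest that the table holds for any probe. The deeper libraries of pregnant rats 5 and 6 did not carry more miR-222 counts than the control rats. The probe had no rat with 10 counts and was outside the filter, and in a fit on all 420 probes its log2 fold change was -0.12 with a standard error of 0.36 (edgeR adjusted p = 0.996).

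**Figure D3:**
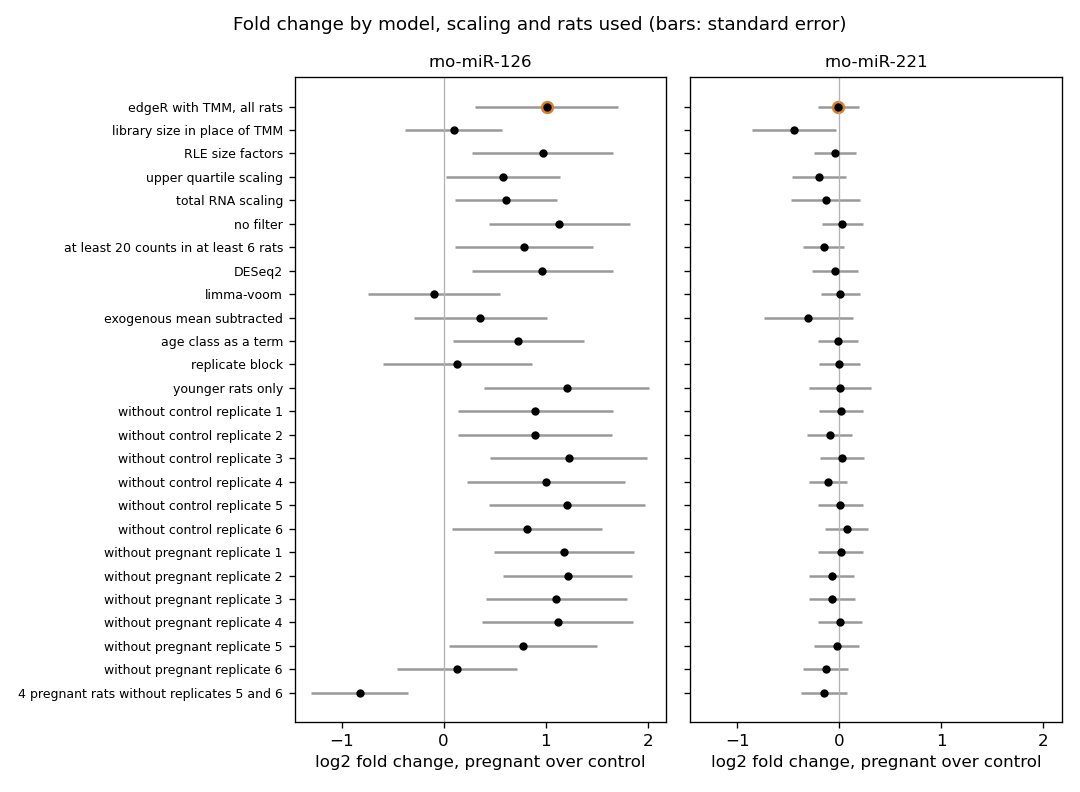
Log2 fold change, pregnant over control, of miR-126 (left) and miR-221 (right) from each edgeR, DESeq2 and limma-voom fit by scaling and choice of rats. Bars show 1 standard error, and the reported fit is the larger orange dot. MiR-126 moves between -0.82 and 1.22, and miR-221 stays between -0.45 and 0.07.

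The ratio of miR-126 to miR-221 within a rat needs no scaling between rats, although miR-221 lay near the background. The miR-126 count was 1.90, 2.88, 4.97, 5.29, 5.09 and 0.912 times that of miR-221 in control rats 1 to 6. The same ratio was 2, 0.696, 1.89, 3.89, 11.2 and 17.5 in pregnant rats 1 to 6. Only pregnant rats 5 and 6 exceeded the control range, and control rat 6 and pregnant rat 2 were alone in having fewer miR-126 than miR-221 counts. The mean log2 ratio was 1.83 ± 1.74 in the pregnant group and 1.56 ± 1.02 in the control group (SD, n = 6 each), a difference of 0.26 (two-sided exact permutation test, p = 0.747, adjusted over 3 ratios 0.747). The smallest p that this design allows is 0.00216. Without pregnant rats 5 and 6 the difference was -0.72, and with pregnant rat 6 alone left out it was -0.20. With the exogenous mean subtracted from each count it was 0.05.

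**Figure D4:**
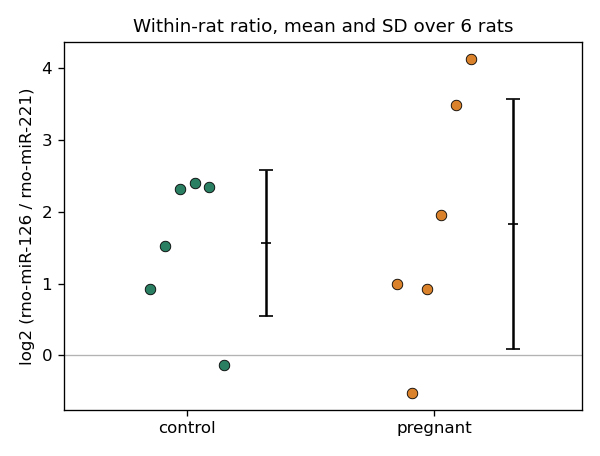
Log2 of the miR-126 count over the miR-221 count in each of 6 control (green) and 6 pregnant (orange) rats, with the mean and SD beside the points. The highest pregnant value is 4.13 and the highest control value 2.40.

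MiR-126 was among the most variable probes. Its SD over the 12 rats was 1.36 on the log2 CPM scale, the 5th highest of 187 tested. The mean absolute deviation from the group median was 1.43 in the pregnant group and 0.70 in the control group. The difference of 0.73 was not past the threshold (two-sided exact permutation test, p = 0.110, adjusted over 3 miRNAs 0.331), and it was -0.12 without pregnant rats 5 and 6. For miR-221 the deviations were 0.15 and 0.28, with the smaller in the pregnant group (exact permutation test, p = 0.251, adjusted 0.377).

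No correlation between miR-126 and miR-221 over the rats passed the threshold. On the log2 CPM scale Pearson's r was 0.11 (permutation p = 0.735, adjusted over 3 pairs 0.906) and Spearman's rho was 0.08 (permutation p = 0.816, adjusted 0.816), and without pregnant rats 5 and 6, the 2 farthest from the median of miR-126, r was -0.18. The sign also turned with plain library sizes, to -0.28, and with total RNA scaling, to -0.37, whereas unscaled counts gave 0.57 (permutation p = 0.0542, adjusted 0.163). MiR-221 and miR-222, which share a seed and a locus, had r = -0.04 (permutation p = 0.906, adjusted 0.906), rho = -0.16 (permutation p = 0.619, adjusted 0.816), and r = 0.62 with plain library sizes. MiR-126 and miR-222 had r = -0.52 (permutation p = 0.0801, adjusted 0.240) and rho = -0.70 (permutation p = 0.0145, adjusted 0.0436). For this pair rho passed the threshold of 0.05 and r did not. Without pregnant rat 6 alone rho was -0.66 (permutation p = 0.0308, adjusted 0.0924). With pregnant rats 5 and 6 left out, r for that pair was -0.62 (permutation p = 0.0565). On raw counts, where no scaling factor is shared, r was -0.14 and rho was -0.36 (permutation p = 0.253, adjusted 0.379). MiR-222 spanned only 1 to 6 counts under the background.

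The 3 probes most like miR-126 over the 12 rats have known roles in blood cells. By Pearson's r of log2 CPM, given as a description, the closest of 186 other tested probes were miR-142-3p (0.94), a haematopoietic miRNA, miR-146a (0.94), which is induced in immune signalling, and miR-144 (0.90), which is made with miR-451 in red cell precursors. Platelet-associated miR-191 (0.82), miR-223 (0.73) and miR-16 (0.67) came 16th, 31st and 37th, lymphocyte miR-150 (0.86) came 9th and red cell miR-451 (0.70) 33rd. MiR-27a, miR-27b, miR-21 and miR-23a of the vessel wall list came 5th, 8th, 10th and 11th. MiR-221 came 79th, and the median over all others was -0.01. All these points share the 12 libraries and their scaling factors. Without pregnant rats 5 and 6 the values for miR-142-3p, miR-146a and miR-144 were 0.86, 0.84 and 0.81, and miR-181a, 4th over all rats, came highest at 0.93. Those for miR-191 and miR-223 were then 0.51 and 0.20, whereas those for miR-16 and miR-451 were 0.60 and 0.53. For miR-221 the closest were miR-206 (0.73), a skeletal muscle miRNA, miR-3563-3p (0.68) and miR-98 (0.65), a member of the let-7 family. These 3 had low mean counts, of 31, 18.8 and 23.8. The SD of miR-221 on this scale was about that of counting error, so its order of likeness carries little information.

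Markers of blood cells were high in the same 2 rats as miR-126. Of the 5 platelet list probes, which include miR-126, 4 were tested, 0 were called and all 4 fold changes were positive, with a median log2 fold change of 0.72 against 0.05 and 104 of 187 positive over all tested probes. Without pregnant rats 5 and 6, 1 of the 4 was positive and the median was -0.65, against -0.07 and 74 of 169 positive over all probes then tested. With plain library sizes 1 of the 4 was positive and the median was -0.08, against -0.33 and 24 of 187 positive over all. The other 4 platelet probes summed to between 213 and 564 counts in the control group and between 27 and 2106 in the pregnant group. Pregnant rats 6 and 5 held the highest and next highest scaled platelet sums, and pregnant rat 2 the lowest, which is where they stood for miR-126. MiR-24 read 1 in all 12 rats, and miR-16 read 1 in pregnant rats 1 and 2. The part of platelet or blood cell miRNA in the miR-126 values was not tested.

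The platelet miRNAs miR-191 and miR-223 were set against miR-126 within each rat. They exceeded the exogenous mean + 2 SD in 8 and 3 of 12 rats, so this reference lay near the background. The log2 ratio of miR-126 to their sum was 0.24 ± 0.90 in the pregnant group and 0.36 ± 0.95 in the control group (SD, n = 6 each). The difference of -0.11 was within the spread between rats (two-sided exact permutation test, p = 0.838, adjusted over 2 references 0.838). Against the sum of all 4 other platelet probes, which miR-16 dominates, the difference was 0.64 (exact permutation test, p = 0.286, adjusted 0.571). Without pregnant rats 5 and 6 these differences were -0.63 and 0.76. In pregnant rats 1 and 2, where miR-16 read 1, miR-126 was 84.4% and 59.3% of the 4-probe sum. The highest control rat had 47.3%. Leaving out pregnant rat 1 alone moved the 4-probe difference to 0.36, and leaving out pregnant rat 2 alone moved it to 0.46. Both references were chosen after seeing the data.

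**Figure D5:**
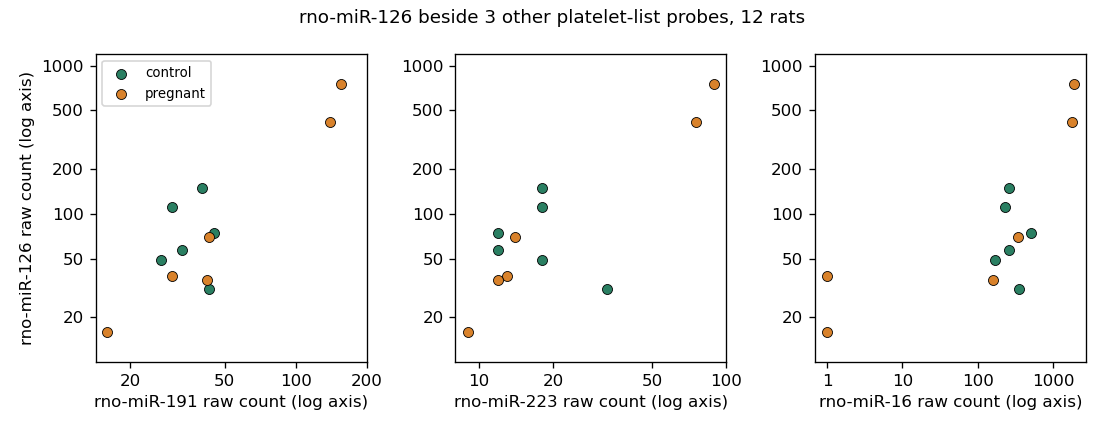
Raw miR-126 count against the raw counts of miR-191, miR-223 and miR-16 (log axes) in 6 control (green) and 6 pregnant (orange) rats. Pregnant rats 5 and 6 lie at the top right of each panel, with 414 and 752 miR-126 counts.

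The red cell and leukocyte lists were also highest in pregnant rats 5 and 6. They are not separate from the platelet list, since miR-16 is in the platelet and red cell lists and miR-223 in the platelet and leukocyte lists. Of the red cell list, 3 of 4 probes were tested, 0 were called, and their median log2 fold change was 0.76, with pregnant rats 5 and 6 highest and pregnant rat 2 lowest by scaled sum. Of the leukocyte list, 6 of 7 probes were tested and 0 were called. In it 5 fold changes were positive and 1 was negative, and the median was 0.66. Over all tested probes the median was 0.05, with 104 of 187 positive. By scaled sum of the leukocyte list too, pregnant rats 6 and 5 were highest and pregnant rat 2 lowest. With pregnant rats 5 and 6 left out, all tested probes of both lists had negative fold changes, with medians of -0.51 and -0.36. All probes then tested had a median of -0.07, with 74 of 169 positive. With plain library sizes the medians of the 2 lists were -0.23 and -0.15, against -0.33 and 24 of 187 positive over all tested probes. The paper measured haemolysis by RT-qPCR, as a ratio of miR-451 and miR-23a, and every sample lay below its cutoff. That cutoff does not carry over to raw counts of 2 probes. The ratio of miR-451 to miR-23a counts was 5.49 in pregnant rat 5 and 1.30 in pregnant rat 6, inside the control range of 0.945 to 6.63. Both parts of the ratio were above every control rat there, with 2529 and 1304 counts of miR-451 and 461 and 1005 of miR-23a. The part of haemolysis in the miR-126 values was not tested.

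Of 23 other vessel wall probes, 10 were tested and 0 were called. Of the fold changes 9 were positive and 1 was negative, against 104 of 187 positive over all tested probes. The median log2 fold change was 0.48, against 0.05 over all. With pregnant rats 5 and 6 left out, 2 were positive and 8 negative, with a median of -0.25. Over all probes then tested the median was -0.07, with 74 of 169 positive. Plain library sizes gave the same counts for the list and a median of -0.25, against -0.33 and 24 of 187 positive over all. MiR-27b, miR-23a and miR-27a, made from the miR-23, miR-27 and miR-24 clusters that act in vessel growth, had log2 fold changes of 0.93, 0.74 and 0.59, and the probe for miR-20a and miR-20b, of the miR-17 family, had 0.40. MiR-21, a widely expressed miRNA of injured vessels, had 1.23 (edgeR adjusted p = 0.732). The single negative value was that of miR-132 (-0.36), a miRNA of activated endothelium. The summed counts of the list ranged from 662 to 1158 in the control group and from 282 to 4681 in the pregnant group, with the same 2 rats highest and pregnant rat 2 lowest by scaled sum. The smooth muscle list, miR-143 and miR-145, had a median log2 fold change of 0.09, with 2 of 2 tested and 0 called, and -0.67 without pregnant rats 5 and 6 (-0.52 with plain library sizes). The liver list, miR-122 and miR-192, had a median of 1.33, with 2 of 2 tested, 2 positive and 0 called. Without those rats 1 liver probe was positive and 1 negative, with a median of 0.79 against -0.07 over all probes then tested.

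High counts in pregnant rats 5 and 6 were common to many probes. These were the 2 highest rats for 81 of 187 tested probes by raw count (43.3%) and for 33 by CPM (17.6%), so miR-126, highest in both on either scale, was 1 of the 33. MiR-221 was in the first set only.

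Age differed within both groups. In each group 4 rats were under 200 days old and 2 were older. MiR-126 read 57 and 49 counts in the older control rats and 38 and 36 in the older pregnant rats, so all 4 older rats lay in a narrow range. The younger control rats ran from 31 to 149 counts and the younger pregnant rats from 16 to 752, and both high pregnant rats were 110 days old. Among the younger rats alone the log2 fold change was 1.20 (edgeR adjusted p = 0.728). The difference of the pregnancy effect between age classes, older minus younger, was -1.58 with a standard error of 1.31 (edgeR adjusted p = 0.780). For miR-221 it was -0.14 with a standard error of 0.44 (edgeR adjusted p = 0.931).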

How the data were processed

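The authors deposited raw nCounter counts per probe from the rat miRNA codeset, without background correction or normalisation. The kit's own control probes were left out, and 4 exogenous probes without spike-in stood in for the background. The members and the lists were chosen with earlier results of these data known. Probes named beside the members were the 3 most alike in log2 CPM and the list probes.

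Groups were compared by edgeR's quasi-likelihood test (edgeR 4.0.16, R 4.3.3, TMM) over the 187 of 420 endogenous probes reaching 10 counts in 6 or more rats, with Benjamini-Hochberg adjustment. That minimum of 10 counts lay within the range of the exogenous means, so tested probes could lie near the background. MiR-222 came from a fit on all probes. DESeq2 1.42.0, limma-voom (limma 3.58.1) and other scalings and filters were alternatives, as was the methods' t-test in the 7 total RNA workflows. The NormFinder workflows were not run. Ratios and spreads were tested by exact permutation (numpy 2.4.6), and correlations with 100000 resamples (scipy 1.17.1). In every test the rat was the unit, so p-values refer to differences or correlations over rats. The procedure was tested on simulated data. Counts of this size limit the precision: 16 counts have an exact Poisson 95% interval of 9.15 to 26.0, and 752 counts one of 699.2 to 807.7.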

Additional observations from a re-analysis of the deposited data

How the results depend on the processing

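No member was called under any of the alternatives run with a test of the groups, and the count of called probes was 0 in each. The log2 fold change of miR-126 was positive under all but 2: limma-voom gave -0.091, and leaving out pregnant rats 5 and 6 gave -0.82. Leaving out 1 rat gave 0.13 to 1.22, the lowest without pregnant replicate 6. The replicate numbers did not pair the rats (same-number correlations -0.31 to 0.25, 1 control rat closest to its own number), and with the replicate block the value was 0.13, and 0 probes were called. The near-zero fold change of miR-221 turned positive with no filter (0.031), limma-voom (0.010), the replicate block (0.00156), younger rats only (0.00839), the permutation test of log2 CPM (0.024) and the methods' t-test after subtraction at the exogenous mean (0.030), mean + 1 SD (0.54) and mean + 2 SD (0.36). Leaving out 1 rat gave -0.13 to 0.075, and for miR-222 -0.30 to 0.021. MiR-222 could not be fitted in edgeR with a minimum of 20 counts or with the exogenous mean subtracted. Rats with miR-221 above background numbered 12 at the exogenous mean, 9 at mean + 1 SD and 2 with osa-miR-414 among the background probes. For miR-126 the numbers were 12, 12 and 10.

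Leaving out 1 rat moved the difference in log2 ratio of miR-126 to miR-221 from -0.20 to 0.74, of miR-126 to miR-222 from -0.10 to 1.08, of miR-221 to miR-222 from -0.053 to 0.52 and of miR-126 to miR-191 with miR-223 from -0.44 to 0.089. The last was 0.14 in younger rats. Without pregnant rats 5 and 6 the first, second and last were -0.72, -0.64 and -0.63. Against the 4 other platelet probes it ran from 0.34 to 0.88 and was 0.76 without both rats. Subtracting the exogenous mean moved the first to 0.048. The difference in spread ran from 0.29 to 0.88 for miR-126, -0.18 to -0.02 for miR-221 and -0.11 to 0.37 for miR-222. It was 0.011 for miR-221 with library sizes and -0.12 for miR-126 without pregnant rats 5 and 6. The correlation of miR-126 with miR-221 ran from -0.12 to 0.29 and was -0.28 with library sizes, -0.37 with total RNA scaling and -0.18 without both rats. That of miR-221 with miR-222 ran from -0.16 to 0.085 and was 0.62 with library sizes, 0.26 on raw counts, 0.57 with total RNA scaling and 0.033 without both rats. The correlation of miR-126 with miR-222 ran from -0.68 to -0.48 and was -0.14 on raw counts. The causes were not tested. Low counts limit the precision for miR-221 and miR-222 throughout.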
